A study of Mus musculus with 34 samples.

Results

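The genes described here make the enzymes and helpers that fold, trim and crosslink collagen, and their RNA was followed in the mouse cornea over life. The list named 10 genes, and a gene was represented by the probe set that carried its symbol alone and had the highest mean over the whole-cornea arrays. This gave 9 of the 10 genes, each with 1 such probe set, among 12998 genes tested: P4ha1, P4ha2, Plod1, Plod2, Serpinh1, Bmp1, Pcolce, Lox and Loxl1. The probe set of Loxl2, a lysyl oxidase, also carried the symbol Gm21451, so Loxl2 has no value here. All 9 genes passed the filter on low values, which kept genes above the array median on at least 2 of 32 arrays.

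RNA of corneas dissected from the eyes of wildtype CB6 mice had been hybridised to Affymetrix gene arrays, 1 array per sample. Whole corneas came from E14.5, E15.5, E17.5, P3, P7, P14, P28 and 2 months (E, embryonic day and P, postnatal day; 3 arrays each) and from 6 months, 1 year, 18 months and 2 years (2 arrays each), and 1 array each held stroma cut out by laser at P7 and epithelium lifted off with dispase at P28. All RNA was amplified from 20 ng of total RNA, no treatment was given at any age, and whether arrays of 1 age stand for different animals is not stated in the labels, so p-values reflect only the spread from array to array, which may be technical. Values are array intensities on a linear scale, differences are of log2(intensity + 16), later minus earlier, with the standard error (SE) of a linear model over the 32 whole-cornea arrays, and p-values were adjusted by the Benjamini-Hochberg method over all 12998 genes. A gene was called, and is said to have risen or fallen, at an adjusted p under 0.05 and a log2 difference of at least 1. The number of arrays limits the precision, and levels of different genes are not compared because each probe set has its own brightness.

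Collagen chains are modified and folded in the endoplasmic reticulum before they are secreted: prolyl 4-hydroxylases stabilise the triple helix, lysyl hydroxylases prepare lysines for sugars and crosslinks, and the chaperone HSP47 holds the folded helix. Outside the cell, proteinases remove the propeptides so that fibrils can form, and lysyl oxidases start the covalent crosslinks between molecules. In the cornea, keratocytes of the stroma lay down thin, evenly spaced fibrils of type I collagen with type V collagen, an arrangement on which transparency depends.

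The arrays of a given age correlated with each other at r of 0.879 to 0.985 over all genes tested, and array medians lay between 188.2 and 240.6. On 8 arrays genes of another tissue stood at least 2 log2 units above their median over the 32 arrays: lens genes on E14.5 replicates 2 and 3, P14 replicate 2, 2 months replicate 1 and 6 months replicate 2, muscle genes on E17.5 replicates 1 and 3, and retina genes on 6 months replicate 1. Calls are given with and without these 8 arrays below, except those with 6 months, where no array would be left, and E14.5 and E17.5 then have 1 array each, assumed to vary like the other ages. Epithelial markers of the labelled tissue were weak at E14.5 and summed higher at every later age. Keratocyte markers were weak at E14.5 and low again on arrays of 6 months and 18 months. At 2 years they summed to 2906 on 1 array and 12319 on the other, the latter within the 12245 to 16725 of 1 year. The 6 keratocyte genes summed to 4266 to 6207 at 18 months, within the 1842 to 6750 of E14.5. Krt12, a keratin of the corneal epithelium, averaged 7494 ± 1880.0 at E15.5 and 55.5 ± 7.32 at E14.5, and Kera, a proteoglycan core protein of keratocytes, averaged 7155 ± 369 at E15.5 and 448 ± 520.0 at E14.5 (SD, n = 3 each).

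Most of the collagen-modifying genes were lower at E14.5 than at E15.5, high from E15.5 to P14, and lower from P28 on. By the mean of log2 values, E14.5 was still above P28 and every later age for Lox, Plod2, Serpinh1, P4ha1, P4ha2 and Bmp1. For Plod2 and Bmp1 it was also above P14. All 9 genes differed over the 12 ages (moderated F-test of limma), against 40.6% of all genes called in that test. Between E14.5 and E15.5, 7 of the 9 rose, against 10.4% of all genes called in either direction and 7.35% called higher. Between P14 and P28, 6 of the 9 fell, against 7.65% called in either direction and 3.5% called lower. The highest age mean was that of E15.5 for 7 genes, of P7 for Pcolce and of E17.5 for Bmp1 by the mean of log2 values. The distance between the highest and the lowest age mean was 6.32 log2 units for Lox, 5.13 for Serpinh1, 4.36 for Plod2, 3.64 for Loxl1, 3.57 for Plod1, 3.38 for Pcolce, 2.86 for P4ha2, 2.83 for P4ha1 and 1.46 for Bmp1. That of Lox depended on the 16 added before log2, at 8.69 with 1 and 4.75 with 64 in its place, because its lowest values lay under that number.

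**Figure D1:**
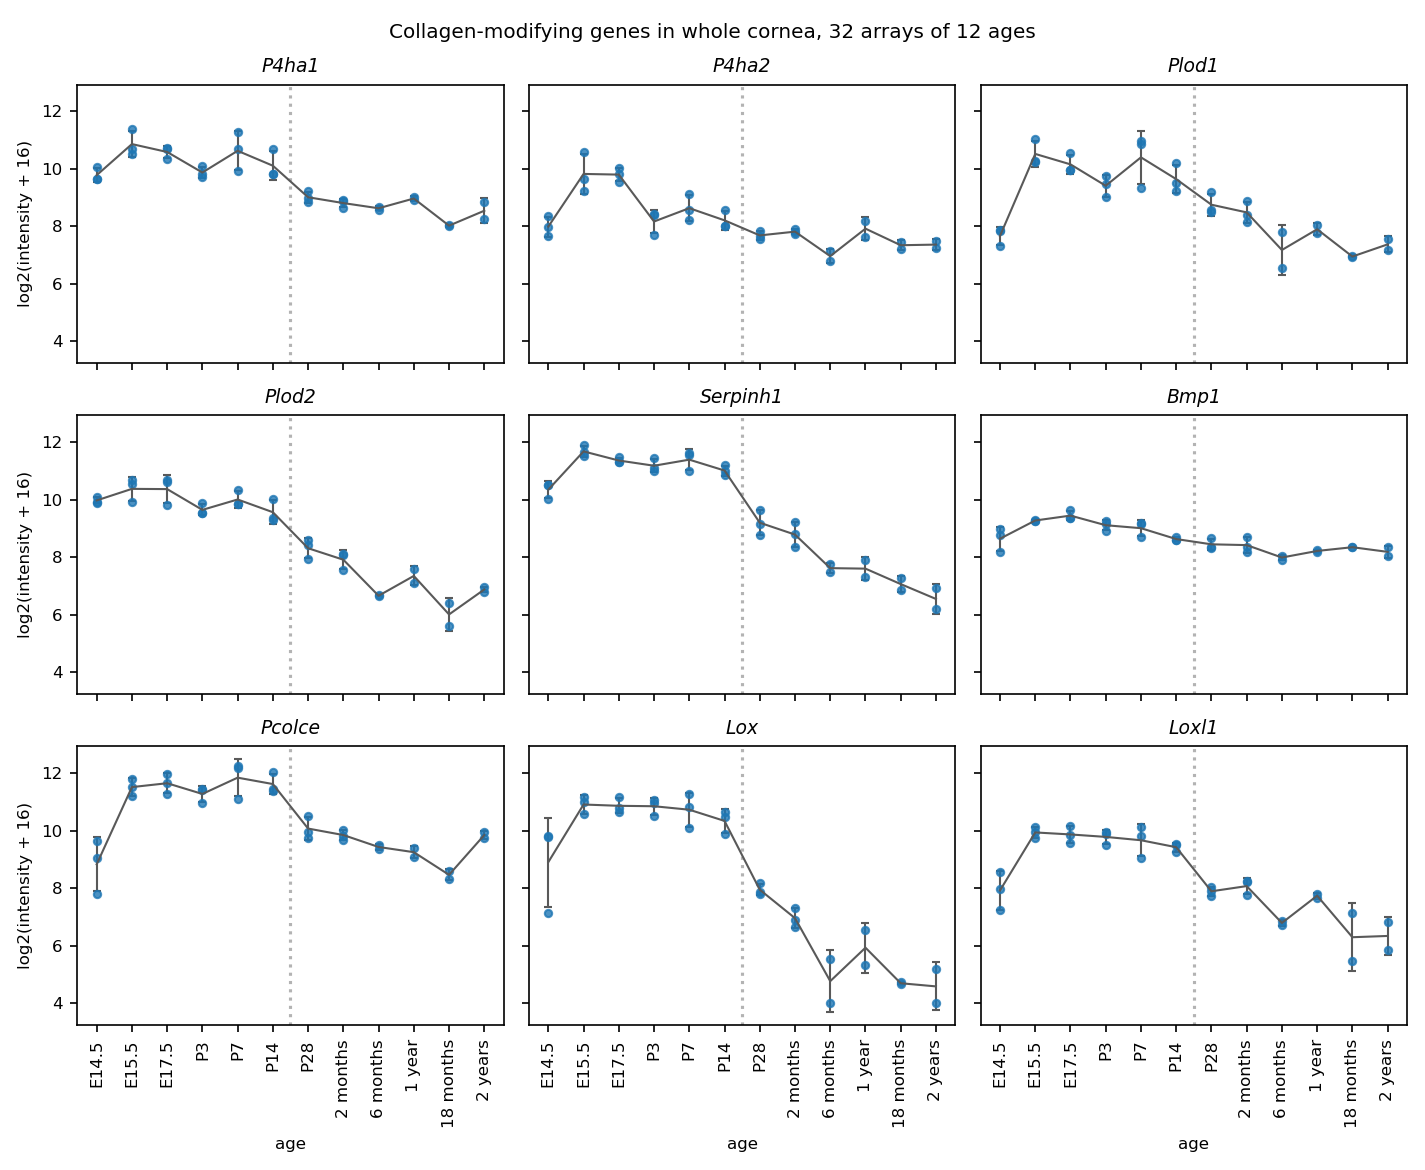
Expression of the 9 genes as log2(intensity + 16) on the y axis against the 12 ages on the x axis, with 1 point per array, lines through the age means and bars of 1 SD. The dotted line lies between P14 and P28, where 6 of the 9 genes fell, and Bmp1 has the narrowest range, 1.46 log2 units between its highest and lowest age mean.

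P4ha1 (probe set 10363350) encodes a catalytic subunit of prolyl 4-hydroxylase, the enzyme that hydroxylates prolines in collagen chains. At E15.5 the arrays read 1639, 1437 and 2647, against 783, 1048 and 778 at E14.5. The E15.5 arrays were all above those of E14.5, a difference of 1.08 ± 0.27 (SE, adjusted p = 0.00279). This difference was just above the threshold and was lost without E15.5 replicate 3, where it was 0.82 (adjusted p = 0.0337), and after quantile normalization (0.97), centring on array medians (0.99) and array weights (0.79). At P28 the intensities were 486, 444 and 580.1, against 1626, 887 and 888 at P14, with P14 replicate 1 well above the other two. P4ha1 fell by 1.1 log2 units at P28 (SE 0.27, adjusted p = 0.00306), and without P14 replicate 1 the difference was -0.81 and no longer called (adjusted p = 0.0265), as with array weights (-0.88). From P28 to 2 years its 14 arrays stayed between 239.5 and 580.1, and the distance between age means there, 0.99, was under the threshold.

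P4ha2 (10376074), the other catalytic subunit among the 9 genes, had an embryonic peak that had ended by P3. Its intensities were 309, 236 and 185 at E14.5, 587, 781 and 1526 at E15.5, 737, 1019.9 and 889 at E17.5 and 325, 319 and 192 at P3. The 6 arrays of E15.5 and E17.5 were above all others of this gene, those of P7 included. It rose at E15.5 by 1.83 ± 0.28 (SE, adjusted p = 1.48e-05) over E14.5 and fell by 1.63 log2 units at P3 against E17.5 (SE 0.28, adjusted p = 0.000834). It was the only one of the 9 genes called between P3 and E17.5 (1.89% of all genes called, 1.11% lower), and without the arrays rich in other tissue, which leaves E17.5 replicate 2 alone at that age, the difference was -1.85 and called. Of the 12 skeletal muscle genes 8 fell in the same step, and their part in it was not tested. Without E17.5 replicate 2, Plod2 was called there too, at -1.005 (adjusted p = 0.0188). P4ha2 was likewise the only one called between P14 and E15.5, at -1.61 ± 0.28 (SE, adjusted p = 0.000185), against 5.19% of all genes called there and 1.98% called lower, and it was still called without the arrays rich in other tissue, at -1.52. In that comparison Plod2 was called as well without E15.5 replicate 2, at -1.05, and Plod2 and P4ha1 were called without P14 replicate 1, at -1.05 and -1.04. At P28 the arrays of P4ha2 read 172, 187 and 213, against 368, 245 and 243 at P14, values that did not overlap but gave a difference under the threshold, -0.52 ± 0.28 (SE, adjusted p = 0.154).

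RefSeq sequence before the start of the gene was used for 5 of the 9 genes, all in build GRCm38.p6. The 250 bases before the start are shown for the 3 of them that hold the letters ACGTG. These letters are a form of the core of the element bound by hypoxia-inducible factors, and prolyl hydroxylase genes are known hypoxia targets. Other forms of that core were not searched for or marked, so windows without ACGTG may hold one. Each sequence shown is written 5′ to 3′ on the strand of the gene, and capitals mark ACGTG or its reverse complement. The regions are chr10:59323046-59323295 on the plus strand, chr11:54100674-54100923 on the plus strand and chr7:99353240-99353489 on the minus strand.
P4ha1: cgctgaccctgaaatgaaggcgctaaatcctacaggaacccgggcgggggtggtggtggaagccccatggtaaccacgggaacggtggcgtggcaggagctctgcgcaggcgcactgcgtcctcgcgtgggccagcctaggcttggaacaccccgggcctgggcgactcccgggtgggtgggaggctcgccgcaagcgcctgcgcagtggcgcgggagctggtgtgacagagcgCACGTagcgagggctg
P4ha2: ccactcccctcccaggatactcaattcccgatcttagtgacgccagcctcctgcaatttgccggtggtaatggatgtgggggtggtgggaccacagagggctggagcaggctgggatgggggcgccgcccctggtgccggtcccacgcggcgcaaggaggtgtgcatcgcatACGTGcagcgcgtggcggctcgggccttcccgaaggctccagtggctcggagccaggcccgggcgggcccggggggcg
Serpinh1: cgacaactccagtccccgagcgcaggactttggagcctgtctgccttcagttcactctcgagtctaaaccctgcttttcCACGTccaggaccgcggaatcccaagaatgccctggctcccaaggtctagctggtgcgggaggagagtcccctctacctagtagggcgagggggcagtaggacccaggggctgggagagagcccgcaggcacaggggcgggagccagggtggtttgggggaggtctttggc
The match began 16 bases before the start in P4ha1, 78 before it in P4ha2 and 171 before it in Serpinh1, and the windows of Plod1 and Pcolce held none. Searched on both strands, ACGTG was found in 16.6% of the 32851 windows of that length. The heat shock core GAANNTTC was in none of the 5 windows and in 6.69% of all, TATAAA was in that of Plod1 alone of the 5 and in 12.4% of all, and the GC box GGGCGG was in all 5 and in 32.7% of all. Of these genes, P4ha1 and Serpinh1 rose at E15.5 and fell at P28, while P4ha2 fell at P3 instead.

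Plod1 (10518408) and Plod2 (10587829) encode lysyl hydroxylases, of which Plod1 acts mainly on the helix and Plod2 on the telopeptides at its ends. Plod1 had intensities of 1196, 1209.8 and 2100.3 at E15.5, against 212, 216 and 142 at E14.5. The groups were far apart, and the difference of 2.85 ± 0.37 (SE, adjusted p = 2.04e-06) was the highest of the 9 genes in this comparison. Plod2 read 1481, 945 and 1624 at E15.5, against 941, 1078 and 964 at E14.5. Its groups overlapped, since E15.5 replicate 2 was within the range of E14.5, and the difference was 0.40 ± 0.26 (SE, adjusted p = 0.237).

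At P28 Plod2 was called and Plod1 was not. Plod2 read 372, 326 and 228 at P28, against 1036, 638 and 619 at P14, with no overlap. It fell by 1.25 log2 units (SE 0.26, adjusted p = 0.00085), and with array weights the difference was -0.97, under the threshold. Plod1 read 362, 346 and 569 at P28, against 1150.2, 581 and 715 at P14. Its groups nearly touched, at 569 for the highest P28 array and 581 for the lowest P14 array, and the difference of -0.89 ± 0.37 (SE, adjusted p = 0.0679) was not called. Plod1 was called there at -1.11 without P28 replicate 3 (adjusted p = 0.0464) and at -1.10 without the arrays rich in other tissue (adjusted p = 0.0456). A test of whether the 2 genes differ in their change was not made. Among adult ages Plod2 averaged 229.5 ± 50.7 at 2 months, 85.4 ± 1.35 at 6 months, 149.7 ± 37.5 at 1 year, 51.2 ± 26 at 18 months and 102 ± 8.25 at 2 years (SD). The 18 months arrays were below all others of this gene.

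Serpinh1 (10565794) encodes HSP47, the chaperone that binds procollagen. Its arrays read 3191, 2888 and 3788 at E15.5, against 1453, 1448 and 1022 at E14.5. All 3 at E15.5 were above the highest of E14.5, and the difference was 1.33 ± 0.24 (SE, adjusted p = 0.000146). At P28 they read 784, 427 and 562, against 2342, 1843 and 2008 at P14. Serpinh1 fell by 1.81 log2 units (SE 0.24, adjusted p = 7.73e-06), and this call held with each array left out and in every other setting tried. From P28 on its age means were 591 ± 180.0 at P28, 440.2 ± 136 at 2 months, 182 ± 25.2 at 6 months, 183 ± 54.7 at 1 year, 119.7 ± 26.6 at 18 months and 80.9 ± 33.9 at 2 years (SD), lowest at 2 years and with 6 months and 1 year closer than their SD.

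Bmp1 (10421361) encodes the proteinase that removes the C-terminal propeptide of procollagen, and Pcolce (10534862) encodes the secreted protein that enhances this cleavage. Bmp1 read 603, 603 and 610.5 at E15.5, against 490.3, 425 and 273 at E14.5. The difference of 0.63 ± 0.17 (SE, adjusted p = 0.00552) passed the p threshold and missed the log2 threshold of 1. At P28 the gene read 306, 311 and 392, against 371, 404 and 369.8 at P14. These groups overlapped, with a difference of -0.18 ± 0.17 (SE, adjusted p = 0.447), and none of the tested differences between ages called Bmp1. Bmp1 read 644, 778 and 636 at E17.5, its highest age, and between 226.7 and 405.8 on the 14 arrays from P28 to 2 years.

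Pcolce read 2956, 2347 and 3571 at E15.5, against 786, 511 and 208 at E14.5. The groups did not overlap, although E14.5 replicate 3 was far below the other two, and the difference was 2.69 ± 0.33 (SE, adjusted p = 1.27e-06). Through E17.5, P3, P7 and P14 Pcolce stayed between 1988 and 4838. At P28 it read 1446, 984 and 844, against 4185, 2815 and 2621 at P14, below every P14 array, and it fell by 1.55 log2 units (SE 0.33, adjusted p = 0.00115). It read 372 and 307 at 18 months, its lowest age, and 845 and 975 at 2 years. That difference of 1.38 was not called (adjusted p = 0.156), with 2 arrays per age, but it was called with array weights (adjusted p = 0.0146) and when only these ages were fitted (adjusted p = 0.0363).

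Lox (10458894) and Loxl1 (10594066) encode lysyl oxidases, which oxidise lysines of collagen and elastin to start crosslinks. Lox read 2315, 1499 and 2011 at E15.5, against 889.5, 868 and 124 at E14.5. E14.5 replicate 3 was far below the other two, and the difference was 2.00 ± 0.51 (SE, adjusted p = 0.00359). It was 1.09 and not called without the arrays rich in other tissue (adjusted p = 0.1), and it was not called either when 1 was added in place of 16 (2.06, adjusted p = 0.0798) or when only these ages were fitted (adjusted p = 0.0785). At P28 Lox read 209, 273 and 218, against 1601, 926 and 1421 at P14. The gap was wide, and Lox fell by 2.39 log2 units (SE 0.51, adjusted p = 0.00102). In adults the intensities were 145, 103 and 85.3 at 2 months, 0.171 and 30.3 at 6 months, 78 and 23.9 at 1 year, 9.54 and 10.5 at 18 months and 0.00368 and 20.3 at 2 years. From 6 months on every array was at or under 78 and 4 of the 8 were under the 16 added before log2, so these differences depend on that number.

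Loxl1 read 968, 844 and 1107 at E15.5, against 238, 361 and 134 at E14.5. Its groups were well apart, and the difference was 2.01 ± 0.34 (SE, adjusted p = 6e-05). At P28 it read 223, 196 and 251, against 706, 726 and 594 at P14. It fell by 1.53 log2 units with no overlap (SE 0.34, adjusted p = 0.00139). At 18 months its 2 arrays were far apart, at 125 and 28, against 209 and 187 at 1 year. The difference of -1.44 ± 0.42 (SE, adjusted p = 0.102) was not called. It was -2.28 without 18 months replicate 1, a fit in which the lower array, at 28, stands alone for that age.

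Most of the other steps between neighbouring ages held no call. None of the 9 genes was called by limma between E15.5 and E17.5 (0.569% of all genes; 0 of 9 at an unadjusted p under 0.05), between P3 and P7 (1.98%; 2 of 9 unadjusted), between P7 and P14 (0.0%; 1 of 9 unadjusted), between P28 and 2 months (2.12%; 0 of 9 unadjusted), between 6 months and 1 year (0.208%; 3 of 9 unadjusted) or between 18 months and 2 years (0.446%; 2 of 9 unadjusted). Without P7 replicate 2, Plod1 was called at 1.51 and P4ha1 at 1.11 between P7 and P3. Without 2 months replicate 1, the lens-rich array of that age, together with the other arrays rich in other tissue, Lox was called between 2 months and P28 at -1.17 (adjusted p = 0.0241). Over the 6 ages E14.5 to P14 alone, fitted by themselves, 7 of the 9 differed (18.5% of all genes), Plod2 and Bmp1 being the exceptions. The call of P4ha1 in that fit was lost without any 1 of E14.5 replicates 1 and 3, E15.5 replicate 3, E17.5 replicates 1 and 3, P3 replicates 1 and 3 or P7 replicate 3, at adjusted p values from 0.0521 to 0.0701. Without the arrays rich in other tissue the calls of Lox (1.09, adjusted p = 0.24) and P4ha1 (adjusted p = 0.132) were lost in it and Bmp1 was called (1.04, adjusted p = 0.0278). Plod2 was called in that fit without E15.5 replicate 2, E17.5 replicate 2 or P14 replicate 1.

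**Figure D2:**
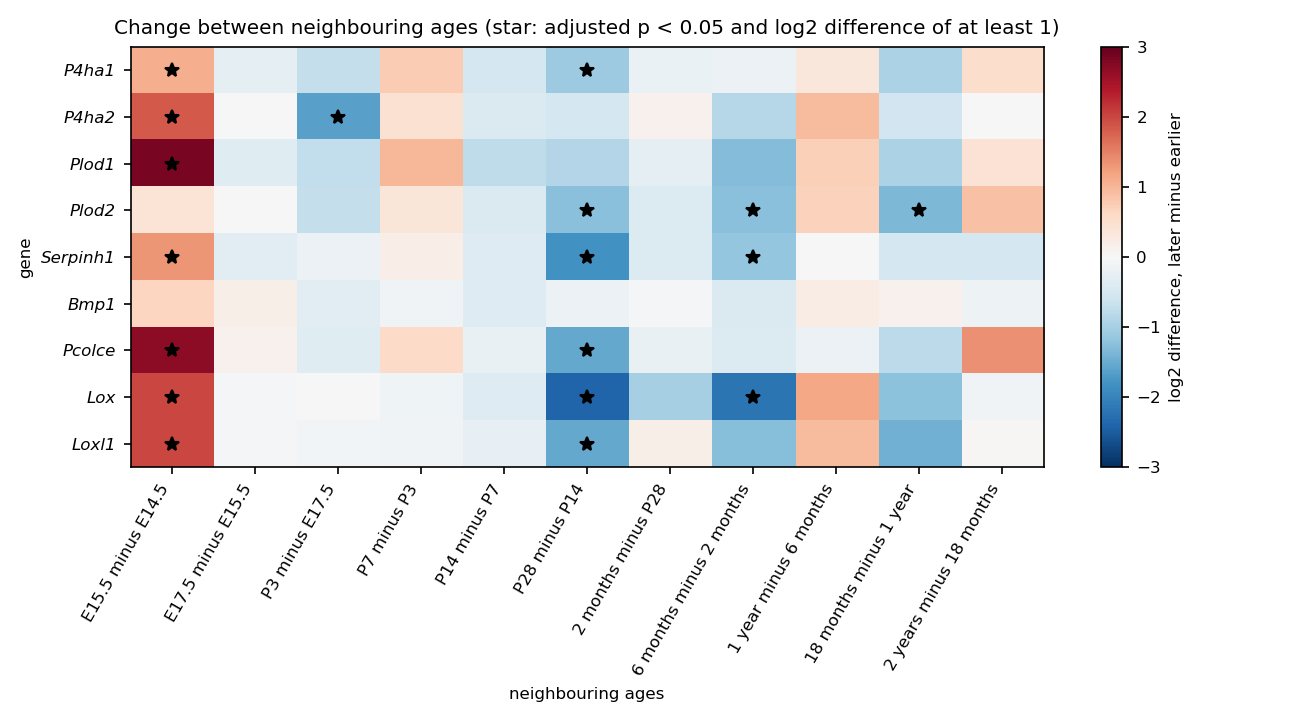
Differences between neighbouring ages, later minus earlier, with genes in rows and steps in columns, coloured by the difference of log2(intensity + 16), and stars for an adjusted p under 0.05 with a difference of at least 1. Stars gather in the first step, E15.5 against E14.5, with 7 of 9 genes, and in P28 against P14, with 6 of 9.

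The first step moved together with markers of both main corneal layers, the lens and blood. The 6 keratocyte genes summed to intensities of 23560 to 27319 on the E15.5 arrays, against 1842 to 6750 on those of E14.5, and 4 of the 6 rose. The 8 corneal epithelial genes summed to 22752 to 34947 at E15.5, against 4297 to 7294 at E14.5, and 7 of the 8 rose. The 15 lens genes summed to 2454 to 2748 at E15.5, against 7349 to 108412 at E14.5, and 11 of the 15 fell. The 5 blood genes summed to 793 to 1391 at E15.5, against 23102 to 33573 at E14.5, and 4 of the 5 fell, with a median of -5.70 over the list. All 3 arrays of E14.5 were high in them, so no comparison with E14.5 could be made without such arrays. Of the 6 genes of the corneal endothelium, the cell layer on the inner face of the cornea, 1 rose and 1 fell. None of these genes was under 1 on all arrays of either age. Without the arrays rich in other tissue, E14.5 replicates 2 and 3 among them, the differences were 2.68 for Plod1, 1.95 for Loxl1, 1.87 for Pcolce, 1.48 for P4ha2, 1.22 for P4ha1 and 1.16 for Serpinh1, all called, with Lox as the exception given above. In RNA of whole tissue, fewer cells of a type and less RNA per cell cannot be told apart, and the part of tissue makeup in this step was not tested.

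Between P14 and P28 the arrays also differed in a way that no gene symbol names. A set of 8 probe sets without a symbol read at least 1501 on all 18 arrays of E14.5 to P14 and at most 12.8 on the 14 arrays of P28 to 2 years, and no probe set was more than 100-fold apart at any of the other 10 boundaries between ages. The labels do not say what divides the arrays there, so age and this division cannot be told apart. For 6 of the 9 genes, all 14 arrays from P28 on were below all 15 arrays from E15.5 to P14, against 4.05% of all genes, a grouping of ages chosen after the values were seen. Plod1, P4ha2 and Bmp1 overlapped. The median of all genes was higher at P28 by 0.11 log2 units as deposited, and it was 0.00 after each array was centred on its median, with the same direction for all 9 genes. Of all genes called, 539 were higher and 455 lower at P28, and after centring 403 were higher and 535 lower.

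The summed keratocyte genes were 15708 to 19498 on the P28 arrays, against 18599 to 31162 on those of P14, with 1 of the 6 called higher and 1 lower. The summed epithelial genes were 63842 to 69222 at P28, against 41724 to 52232 at P14, with 1 of the 8 called higher. The 6 endothelial genes summed to 4276 to 5457 at P28, against 5234 to 8436 at P14, and 3 of the 6 fell, with a median of -0.84. Lens genes summed to 6076 to 33546 at P28, against 2416 to 59341 at P14, with none of the 15 called. Without the arrays rich in other tissue the 6 genes were all still lower, from -1.24 for P4ha1 to -2.62 for Lox, and called, and Plod1 was added. The part of tissue makeup in this step was not tested. Against P7, 2 months had 7 of the 9 genes lower, against 6.75% of all genes called and 4.34% called lower. Those 7 differences ran from -1.59 for Loxl1 to -3.77 for Lox, while P4ha2 at -0.82 ± 0.28 (SE, adjusted p = 0.0317) and Bmp1 at -0.59 ± 0.17 (SE, adjusted p = 0.0136) were under the log2 threshold. Without P7 replicate 2, P4ha2 was called there at -1.02. Without the arrays rich in other tissue the 7 differences were all still called, from -1.67 for Loxl1 to -3.95 for Lox. Of the marker lists, 5 of 10 retina genes were called higher at 2 months than at P7, and of the 6 keratocyte and the 8 epithelial genes 1 was higher and 1 lower in each list.

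Set against E14.5, adult cornea of 2 months was lower for some of these genes and not for others. Plod2 fell by 2.06, Lox by 1.95 and Serpinh1 by 1.56 log2 units at 2 months, and Pcolce was higher by 1.02 ± 0.33 (SE, adjusted p = 0.0154), so 4 of the 9 were called (16.3% of all genes, 10.3% higher and 6.02% lower). The call of Pcolce was lost without E14.5 replicate 3, at 0.51 (adjusted p = 0.18), without 2 months replicate 3, at 0.93 (adjusted p = 0.0557), and without the arrays rich in other tissue, at 0.22 (adjusted p = 0.737). It was lost as well with 64 in place of 16 (0.93), after quantile normalization (0.93) and median centring (0.97), with array weights (0.89) and when only these ages were fitted (adjusted p = 0.107). The call of Lox was lost when 1 was added in place of 16 (adjusted p = 0.0682) or only these ages were fitted (adjusted p = 0.0689). P4ha1 was close to the threshold at -0.97 ± 0.27 (SE, adjusted p = 0.00471) and was called at -1.01 to -1.04 without E14.5 replicate 1 or 3 or without 2 months replicate 1 or 3. P4ha1 was called as well after quantile normalization (-1.13) and median centring (-1.02) and with array weights (-1.10). Loxl1 at 0.15 ± 0.34 (SE, adjusted p = 0.747) and P4ha2 at -0.18 ± 0.28 (SE, adjusted p = 0.63) were not called. Without the arrays rich in other tissue Lox was at -3.04, Plod2 at -2.08 and Serpinh1 at -1.74, all called. Markers moved widely here: 8 of 8 epithelial, 4 of 6 keratocyte, 3 of 6 endothelial and 5 of 10 retina genes were higher at 2 months, and 4 of 5 blood, 4 of 5 vessel, 2 of 5 pigment cell and 5 of 15 lens genes were lower. Their part in these differences was not tested.

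From P28 to 2 years, 6 of the 9 genes differed when these ages were fitted by themselves, against 6.89% of all genes. The exceptions were Bmp1, with 0.46 between its highest and lowest age mean, P4ha1 with 0.99 and P4ha2 with 0.96. P4ha1 was called without P28 replicate 1 or 2 or 1 year replicate 1, and P4ha2 without 6 months replicate 1 or 1 year replicate 1. The highest of these age means was that of P28 for Lox, Plod1, Plod2, Pcolce and Serpinh1, and that of 2 months for Loxl1. In the test over P28 to 2 years 6 of 6 keratocyte, 4 of 6 endothelial and 1 of 8 epithelial genes were also called. Their part in these differences was not tested. Between 2 and 6 months 3 of the 9 fell, against 1.25% of all genes called and 1.04% called lower. Lox differed by -2.19 ± 0.57 (SE, adjusted p = 0.0372), a value that was -4.18 with 1 and -1.16, not called, with 64 in place of 16. Plod2 differed by -1.25 ± 0.29 (SE, adjusted p = 0.02) and Serpinh1 by -1.17 ± 0.27 (SE, adjusted p = 0.0196). Each of these calls was lost when some single arrays were left out: without 6 months replicate 1, the retina-rich array, none was left, with -1.43 for Lox (adjusted p = 0.351), -1.27 for Plod2 (adjusted p = 0.13) and -1.04 for Serpinh1 (adjusted p = 0.178). Without 6 months replicate 2, the lens-rich array, Lox stayed called and Plod1 was added at -1.93, while Plod2 was at -1.24 (adjusted p = 0.102) and Serpinh1 at -1.30 (adjusted p = 0.0578). Leaving out 2 months replicate 1, 2 or 3 cost the call of Lox each time, that of Plod2 without replicate 2 and that of Serpinh1 without replicate 3. When only 2 and 6 months were fitted, none of these 3 genes was called (adjusted p 0.0508 to 0.0973). Loxl1 was called in that fit, at -1.28 (adjusted p = 0.0435).

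The keratocyte genes moved with the 6 months arrays: their sum was 4286 to 8579 at 6 months, against 17146 to 24080 at 2 months, and 3 of the 6 fell. The endothelial genes summed to 3933 to 4643 at 6 months, against 6653 to 7641 at 2 months, and 3 of the 6 fell, with a median of -1.48. The retina genes summed to 5978 to 30848 at 6 months, against 2169 to 10111 at 2 months, and the lens genes to 5939 to 58894, against 3267 to 83707, none of either list called. Their part in the lower values at 6 months was not tested. Between 1 year and 18 months Plod2 alone fell (0.854% of all genes called, 0.762% lower), with 69.7 and 32.8 at 18 months, against 123 and 176 at 1 year. The difference of -1.34 ± 0.32 (SE, adjusted p = 0.0358) was no longer called when any 1 of these 4 arrays was left out, with -0.93 without 18 months replicate 2, -1.74 without 18 months replicate 1, -1.11 without 1 year replicate 2 and -1.57 without 1 year replicate 1 (adjusted p 0.053 to 0.514). The endothelial genes summed to 3448 to 3855 at 18 months, against 4165 to 5974 at 1 year, and 3 of the 6 fell, with a median of -1.87. The keratocyte genes summed to 4266 to 6207 at 18 months, against 12245 to 16725 at 1 year, with a median of -1.72 and none of the 6 called. Their part in the lower Plod2 was not tested.

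Age within adulthood was also tested as the 3 oldest ages, 1 year, 18 months and 2 years, against 2 and 6 months. Serpinh1 was the only one of the 9 genes called (0.677% of all genes called, 0.554% lower). Its arrays read 144 and 221 at 1 year, 101 and 139 at 18 months and 57 and 105 at 2 years, against 431, 309 and 580.5 at 2 months and 164 and 199.9 at 6 months. The ranges overlapped at 1 year replicate 2, and the mean difference was -1.13 ± 0.18 (SE, adjusted p = 0.0011). The call held with each array left out in turn, and the difference came under the log2 threshold, at -0.91 and -0.96, when 64 was added in place of 16 or after quantile normalization. Of the others, Lox at -0.79 ± 0.38 (SE, adjusted p = 0.262) and Loxl1 at -0.64 ± 0.25 (SE, adjusted p = 0.16) were lower without a call, and P4ha2 at 0.15 and Bmp1 at 0.05 were close to 0. In this comparison 2 of 6 endothelial genes were called lower (median -0.88) and 2 of 10 retina genes (median -1.31), and the keratocyte genes had a median of -0.60 with none called. Their part in the lower Serpinh1 was not tested.

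Other genes of the same pathway shared part of this course. Of 26 listed genes for collagen folding, processing and secretion 22 were tested, and at E15.5 9 of the 22 rose and none fell against E14.5, with a median difference of 0.96 over the list, 1.83 over the 9 genes and 0.01 over all genes. Among them were Colgalt2, which adds galactose to hydroxylysine, with a difference of 3.29, P3h1 and Crtap, partners in prolyl 3-hydroxylation, with 2.90 and 2.02, and Fkbp14, a prolyl isomerase, with 2.07. At P28 5 of the 22 fell and 2 rose against P14, with a median of -0.37 over the list, -1.25 over the 9 genes and 0.11 over all genes. P3h1 fell by 2.59 and P4ha3, a further prolyl 4-hydroxylase subunit, by 2.56, while Pcolce2, a relative of Pcolce, rose by 2.13 and P3h2 by 1.01. Against P7, 12 of the 22 were lower at 2 months and 1 higher, Pcolce2 with 3.39, where Pcolce itself was at -1.99.

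The fibrillar collagen chains, the substrates of these enzymes, had 6 of 11 genes higher at E15.5 than at E14.5, with a median of 1.83 over the list. At P28 5 of the 11 were lower than at P14, with a median of -0.97: Col3a1 at -2.25, Col11a1 at -2.15, Col1a2 at -2.06, Col5a2 at -2.00 and Col1a1 at -1.88. At 6 months 3 of the 11 were lower than at 2 months, Col11a1 at -2.06, Col5a2 at -1.71 and Col1a2 at -1.62. These lists were not tested as sets against other genes.

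**Figure D3:**
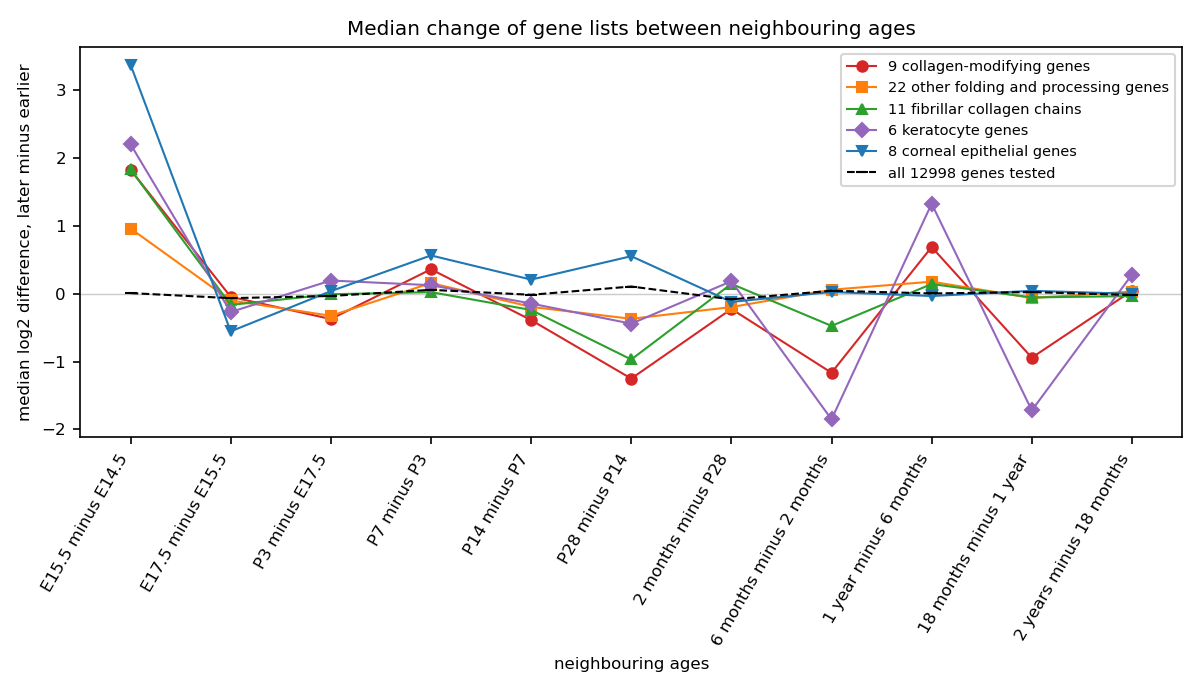
Median difference of log2(intensity + 16), later minus earlier, on the y axis for each step between neighbouring ages on the x axis, for the 9 genes, 22 other folding and processing genes, 11 fibrillar collagen chains, 6 keratocyte genes, 8 corneal epithelial genes and all 12998 genes. The 9 genes stand at 1.83 in the first step and at -1.25 in the step between P14 and P28, where all genes stand at 0.01 and 0.11.

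Within an age the 9 genes often shifted together from array to array. At P7 replicate 1 was the highest array for 9 of 9 genes and replicate 2 the lowest for 9 of 9, with list medians of 10.97 and 9.84 on the log2 scale. Between these arrays the epithelial genes ran the other way, at 12.29 on replicate 1 and 12.57 on replicate 2. The keratocyte genes were at 12.10 and 11.78. On P7 replicate 3 the epithelial genes were at 12.21, their lowest of that age, while the 9 genes were at 10.69. At E14.5 replicate 3 was lowest for 8 of 9, and at P3 replicate 3 for 7 of 9. At E15.5 replicate 3 was highest for 8 of 9, and at P14 replicate 1 for 7 of 9. The epithelial genes were also lowest on that E14.5 array, at 7.55, and highest on those E15.5 and P14 arrays, at 11.93 and 12.84. So were the keratocyte genes, at 8.32 on that E14.5 array and at 11.98 and 12.10 on those E15.5 and P14 arrays. On P3 replicate 3 the epithelial genes were at 11.28, between the other arrays of that age. The keratocyte genes were at 11.88 there, their highest of that age. E14.5 replicates 2 and 3 were both lens-rich, and replicate 2 was lowest for 0 of 9 and highest for 4 of 9. The part of tissue makeup in these shifts was not tested.

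**Figure D4:**
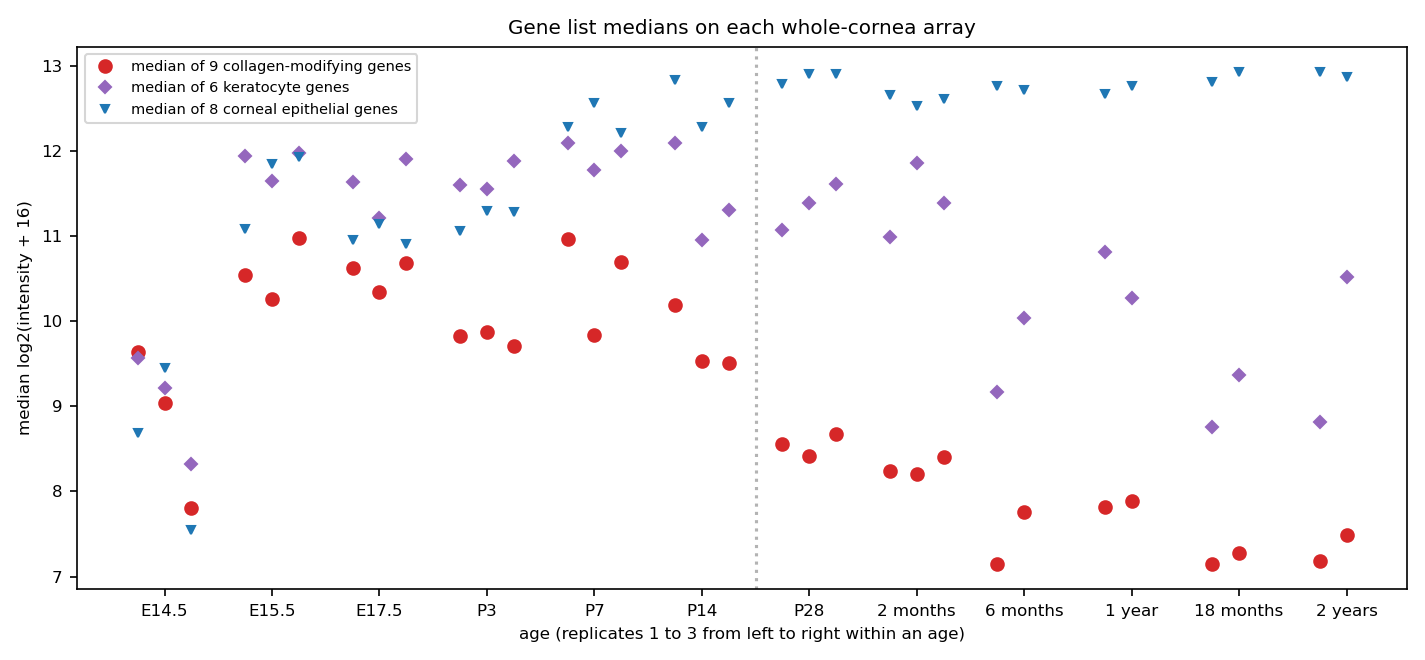
Median log2(intensity + 16) of the 9 genes, the 6 keratocyte genes and the 8 corneal epithelial genes on each of the 32 whole-cornea arrays, by age and replicate from left to right, with a dotted line between P14 and P28. The 9 genes lie between 9.51 and 10.99 on the arrays of E15.5 to P14 and between 7.14 and 8.67 on those of P28 to 2 years.

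Over the 12 age means the 9 genes ran alike, with Pearson's r from 0.726 to 0.990 over the 36 pairs and a median of 0.886. Lox and Serpinh1 were the closest pair, at 0.990, and P4ha2 and Pcolce the least close, at 0.726. These coefficients describe 12 points that share arrays and the step between P14 and P28. Within E14.5 to P14 the pairs ran from 0.0675 to 0.997 and within P28 to 2 years from 0.122 to 0.985, over 6 ages each. The genes outside the list with the age course most like the mean of the 9 were Rcn3, a calcium-binding protein of the secretory pathway, at r of 0.993, Copz2 and Mmp2, a gelatinase, at 0.990, Cybrd1 at 0.989, Gxylt2 and Lamc1, a laminin chain, at 0.987, Agtr2, an angiotensin receptor, at 0.986, and Vcam1, an adhesion molecule, at 0.985. Rcn3 stood at 3720.0 at E15.5 and 607 at E14.5, and at 265 at P28 and 1900.0 at P14, by the age means of log2 values put back to intensities. The least alike were Kpna1 at -0.977, Prpsap2 at -0.971 and Klf16 at -0.968.

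In the isolated layers, all 9 genes read higher in stroma at P7 than in epithelium at P28, as did 50.5% of all genes, and 4 were at least 2-fold higher, against 3.39% of all genes. With 1 array per layer and different ages there is no test, and layer and age cannot be told apart. Lox read 794 in stroma and 161 in epithelium, a log2 difference of 2.20. Its epithelial value was at the 0.792 percentile of the genes of that array, near the floor, and its stromal value at the 79th. Pcolce read 1321 in stroma and 483 in epithelium (1.42), P4ha1 962 and 408 (1.21) and Loxl1 676 and 304 (1.11), the stromal value first in each.

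The other 5 genes were less than 2-fold apart between the layers: Plod1 differed by 0.82, Bmp1 by 0.60, P4ha2 by 0.39, Plod2 by 0.33 and Serpinh1 by 0.28. Serpinh1 read 1032 in stroma and 848 in epithelium, at the 86.6 and 80.3 percentiles of the arrays, and Plod2 read 769 and 610.2, at the 77.7 and 67.2 percentiles. The keratocyte genes Kera and Lum marked the stroma, at 3433 and 2109, against 158 and 143 in the epithelium. The stroma array was not free of other tissue. Krt12, a keratin of the corneal epithelium, read 2185 there and 15153 in epithelium. Of the 8 epithelial genes 6 were at least 2-fold lower in stroma and 1, Krt14, was higher, at 2673 against 2244. Their median percentile was 94.8 on the stroma array and 99.4 on the epithelium array. Of other tissues, 15 of 15 lens genes were at least 2-fold higher in the stroma array, as were 7 of 12 skeletal muscle genes (median 1.42) and 3 of 5 pigment cell genes (median 1.29). The part of these tissues in the stromal values was not tested. The layer arrays also have a higher floor, with lowest intensities of 41.76 and 42.62 and medians of 318 to 321.5, so they are set beside whole cornea only as values: Lox was at 794 in stroma at P7 and at 2449, 1072 and 1814 in whole cornea at P7, and Plod2 was at 610.2 in epithelium at P28 and at 372, 326 and 228 in whole cornea at P28. By log2 values, stroma stood below the whole-cornea mean of P7 for all genes except P4ha2 (0.02) and Bmp1 (0.52). Epithelium stood above the whole-cornea mean of P28 for all genes except Lox (-0.49), Pcolce (-1.11) and P4ha1 (-0.28).

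**Figure D5:**
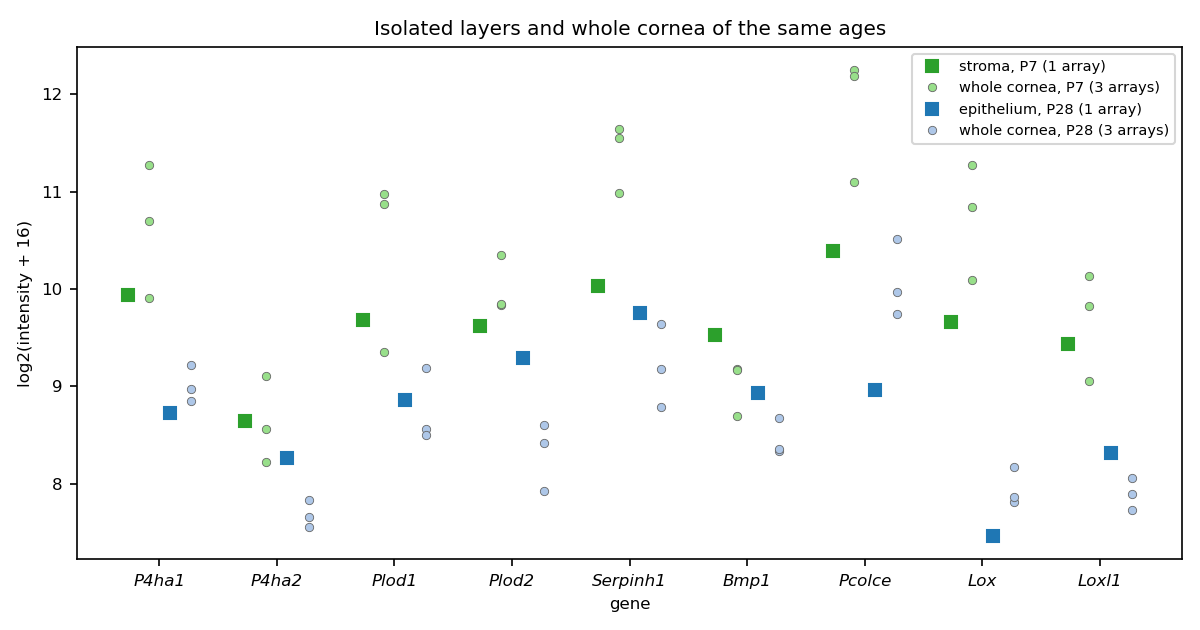
Expression of the 9 genes as log2(intensity + 16) on the y axis, by gene on the x axis, in stroma of P7 and epithelium of P28 (squares, 1 array each) beside the whole-cornea arrays of the same ages (circles, 3 arrays each). The stroma square lies above the epithelium square for all 9 genes, by 2.20 log2 units for Lox and by 0.28 for Serpinh1, and the layer arrays have a higher floor than the whole-cornea arrays.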

How the data were processed

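Whole corneas of 12 ages (32 arrays) and 1 array each of stroma and epithelium were measured. The values deposited by the authors are linear intensities, 1 for each probe set on each array; per the submitters' processing notes PLIER and Affymetrix Expression Console 1.1 were used. The genome build of the array annotation is not given in the sources used here. Only the 21789 of 35557 probe sets with a single symbol were used, which left out 1621 with several symbols and 12147 without any. The 2 missing values lay on the layer arrays.

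Probe sets above the array median on at least 2 of 32 arrays were kept, the one with the highest mean per gene, and log2(intensity + 16) was fitted without further normalization by lmFit and eBayes of limma 3.58.1 (R 4.3.3; 1 mean per age, 20 residual and 4.1 prior degrees of freedom). P-values were two-sided and adjusted by the Benjamini-Hochberg method over 12998 genes. The fit was tested on simulated data. The layer arrays entered no fit. The genes and lists were chosen with earlier results of these data known. The genes named outside the list are members of the marker and pathway lists, and the 8 with the highest and 3 with the lowest r with the mean course of the 9 genes. Alternatives were other filters, 1 or 64 in place of 16, quantile normalization, median centring, the mean of all probe sets, robust moderation, array weights, only the ages compared, leaving out arrays rich in other tissue, a replicate block, averaging 2 months replicates 2 and 3 (whose identifiers 1B and 1A are not explained) and leaving out each array. The series' design text names 1 time point for the layers, while the labels of the 2 arrays give P28 and P7, which were followed. No age had enough arrays for an outlier test. Whether replicate numbers pair arrays was checked by the correlation of same-numbered arrays' deviations from their age means. At P28 and P14 all 3 pairs were over 0.1, with r of 0.141 to 0.251, a pairing seen in the data and not given in the labels. At the other steps with 3 pairs at least 1 pair was below 0.1 (-0.236 to 0.285 over all 29 pairs). Where both ages have 2 arrays, deviations mirror each other and the 2 pairs give the same r, so they are not separate checks. That r was 0.177 at 1 year and 6 months, -0.0519 at 18 months and 1 year and -0.0373 at 2 years and 18 months.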

Additional observations from a re-analysis of the deposited data

How the results depend on the processing

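Of the 53 calls of the 9 genes, no call changed direction under 14 alternatives or with each of 32 arrays left out. Of 654 values under alternatives 620 kept the call and 34 lost it, and of 684 with 1 array left out 658 kept it and 26 lost it, and 40 calls were gained. The number of the 9 genes called at 6 months against 2 months was 3, and it was 1 with 64 in place of 16, after quantile normalization, with only the ages compared and with 2 months replicates 2 and 3 averaged, and 5 with array weights. With only the ages compared, that 1 gene was Loxl1, and Lox, Plod2 and Serpinh1 all lost their calls. The single calls at 18 months against 1 year and at the 3 oldest ages against 2 and 6 months were 0 with 64 in place of 16 and after quantile normalization. Array weights gave 1 call, in place of 0, at P7 against P3, at P14 against P7, at 2 months against P28 and at 2 years against 18 months. Fitting only the ages compared also gave 1 at 2 years against 18 months, and 2 in place of 4 at 2 months against E14.5. Leaving out the arrays rich in other tissue gave 1 in place of 0 at 2 months against P28, and could give no value for comparisons with 6 months or over all 12 ages. With 1 array left out, the counts ran from 1 to 3 at P14 against E15.5, 1 to 2 at P3 against E17.5, 0 to 2 at P7 against P3, 0 to 2 at 6 months against 2 months, 0 to 1 at 18 months against 1 year and 4 to 5 at 2 months against E14.5. The cause was not tested.

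A replicate block left the counts of the 9 genes as they were in all 18 comparisons, 7 at E15.5 against E14.5 and 6 at P28 against P14. With the block and only P14 and P28 fitted, an alternative chosen after seeing the data, the same number, 6, was called at P28 against P14.

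The counts over all genes moved by more than 1.5 times in these comparisons, later against earlier age: 0 to 455 around 74 at E17.5 and E15.5, 134 to 481 around 246 at P3 and E17.5, 0 to 119 around 0 at P14 and P7, 142 to 456 around 275 at 2 months and P28, 47 to 324 around 163 at 6 and 2 months, 9 to 113 around 27 at 1 year and 6 months, 20 to 310 around 111 at 18 months and 1 year, 14 to 109 around 58 at 2 years and 18 months, and 48 to 125 around 88 at the 3 oldest ages. The share of calls that were higher moved by over 10 percentage points with quantile normalization at P28 against P14, to 42.7% in place of 54.2%, at 2 months against P28, to 46.9% in place of 29.1%, at 1 year against 6 months, to 88.9% in place of 70.4%, and at the 3 oldest ages, to 31.2% in place of 18.2%. Median centring gave 43% and 47.7% in the first and second of these. With 2 or 3 arrays per age, differences near the log2 threshold were not resolved, and values of Lox after 2 months lay near the floor.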
